A study of Mus musculus with 9 samples.

Results

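Integrin and laminin subunit genes were described across cultured and freshly sorted enteric glia of the mouse. The members were all probes whose symbol in the array's annotation was that of an integrin alpha subunit (Itga followed by letters or digits), an integrin beta subunit (Itgb and a digit) or a laminin alpha, beta or gamma subunit (Lama, Lamb or Lamc and a digit). There were 47 such probes of 31 genes among the 25697 probes of the array, namely 38 probes of 23 integrin genes and 9 probes of 8 laminin genes. The rule itself uses symbols alone and no measured value.

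All cells came from hGFAP-eGFP transgenic mice of the FVB strain at postnatal day 7, whose green fluorescent protein is made under the promoter of human GFAP, so that the sorted population is the one in which this transgene is active. Tissue was the small intestinal LMMP, the longitudinal muscle layer with the attached myenteric plexus. Each replicate was 1 litter, pooled. LPS-stimulated gliospheres were sorted cells that had grown for 2 weeks on dishes coated with poly-ornithine, fibronectin and laminin (1 µg per cm2 each of the last pair), with daily epidermal growth factor and basic fibroblast growth factor (40 ng/ml each) at 2% oxygen, had been passaged onto uncoated plastic to form spheres and had then received 100 µg/ml of bacterial lipopolysaccharide (LPS) for 48 h. Untreated gliospheres came from the same preparation, split at passage, without LPS. The paper reports that part of the sorted cells lost strong green fluorescence in culture. It also found cells positive for alpha smooth muscle actin in the gliospheres. GFAP-glia in vivo went from the sorter straight into lysis buffer. Each group had 3 arrays, and the LPS-stimulated and untreated arrays of 1 number share a litter. Gliospheres and GFAP-glia in vivo differ in time, coating, growth factors, oxygen and passage at once, and these cannot be told apart.

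Integrins are receptors made of an alpha and a beta chain that span the cell membrane and tie the cytoskeleton to the matrix outside. The alpha chain largely sets the ligand, which may be a laminin, a collagen, fibronectin and other proteins read through an arginine-glycine-aspartate (RGD) motif, or a counter-receptor on a leukocyte or vessel wall. Laminins are cross-shaped trimers of an alpha, a beta and a gamma chain and form the first sheet of a basement membrane. In the gut such a basement membrane surrounds the myenteric ganglia, and in mouse embryos the beta chain encoded by Itgb1 is needed for neural crest cells to colonize the bowel.

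Signals are given as normalized log2 values, and a probe was taken as above background on an array where its detection p-value was 0.05 or less. The median signal of the 9 arrays before normalization was 123.8 to 215.5, and 46.6 to 50.1% of the probes were above background. Of the 47 member probes, 28 probes of 23 genes were above background on at least 1 array and were tested (59.6%, against 57.5% of all probes). Of these, 4 probes (2 of Itgb6 and 1 each of Itga11 and Lamc3) were above background on in vivo arrays alone and 4 (1 each of Itga5, Itga9, Lama1 and Lama4) on gliosphere arrays alone, so that the filter itself favours a difference between the groups. The counts below describe the 28 probes and not all members. Only 11 of the 47 probes were above background on all 9 arrays. Every p comes from limma, adjusted by the Benjamini-Hochberg method over the 14788 probes tested, and a probe was called past the test at an adjusted p under 0.05. The number of arrays limits the precision. In such bulk samples fewer cells of a type and less RNA per cell cannot be told apart.

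The labelled cell type was checked first. Gfap, the intermediate filament of glia whose human promoter drove the sorted transgene, was 8.36, 8.81 and 8.65 in LPS-stimulated gliospheres, 7.43, 9.02 and 7.97 in untreated gliospheres, and 4.31, 3.87 and 3.13 in GFAP-glia in vivo. It was above background on all 6 gliosphere arrays and on 0 of 3 in vivo arrays. S100b, a calcium-binding protein of glia, was above background on 2 of 3 LPS arrays, 3 of 3 untreated arrays and 2 of 3 in vivo arrays, and Sox10 was not analysed here. The summed background-corrected signal of 9 enteric glial markers was 33508 to 46350 with LPS, 48076 to 56811 without and 20320 to 28918 in vivo, with 7 of the 9 above background in each group. Such sums, here and below, were not normalized between arrays, so that array brightness enters any comparison of groups. In normalized values, 2 of the 8 tested (Gfap and Sox2) were higher and 2 (Fabp7 and Apoe) lower with LPS than in vivo. Without LPS 2 (Gfap and Sox2) were higher and 1 (Fabp7) lower. Gfap was tested through the gliosphere arrays alone, and Fabp7, above background on no gliosphere array, through the in vivo arrays alone. The median log2 difference of the list was -0.1 with LPS and -0.08 without. Foxd3 was above background in none of the groups.

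Both gliosphere groups differed from GFAP-glia in vivo in many of these genes, in both directions. In LPS-stimulated gliospheres set against GFAP-glia in vivo, 12 of the 28 tested probes (10 genes) were higher and 8 (5 genes) lower in the gliospheres, where 28.4% of all probes tested passed, 14.9% higher and 13.5% lower. In untreated gliospheres set against GFAP-glia in vivo, 11 probes (9 genes) were higher and 8 (5 genes) lower, where 25.0% of all probes passed, 13.1% higher and 11.9% lower. Leaving aside the 8 probes above background on one side alone, 11 probes were higher and 4 lower with LPS, and 10 higher and 4 lower without. When detection on at least 3 arrays was required, the lower probes were 5 with LPS and 5 without. With LPS, 8 probes were higher without LPS replicate 2, and 5 were lower without in vivo replicate 2. In the authors' normalized values 16 of the 20 differences called with LPS and 14 of the 19 called without were over 1.5 times smaller. The median log2 difference of the 28 probes was 1.04 and 0.81 in the LPS and untreated comparisons, and 0.09 over all probes in each. Between LPS-stimulated and untreated gliospheres, 0 of the 28 probes passed the test, where 0.825% of all probes did, 0.663% higher and 0.162% lower. The arrays of the groups did not overlap for 43.6% of all probes between LPS and in vivo, for 41.1% between untreated and in vivo, and for 19.2% between LPS and untreated, against which statements on overlap below are to be read. The comparisons with GFAP-glia in vivo share the in vivo arrays.

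**Figure D1:**
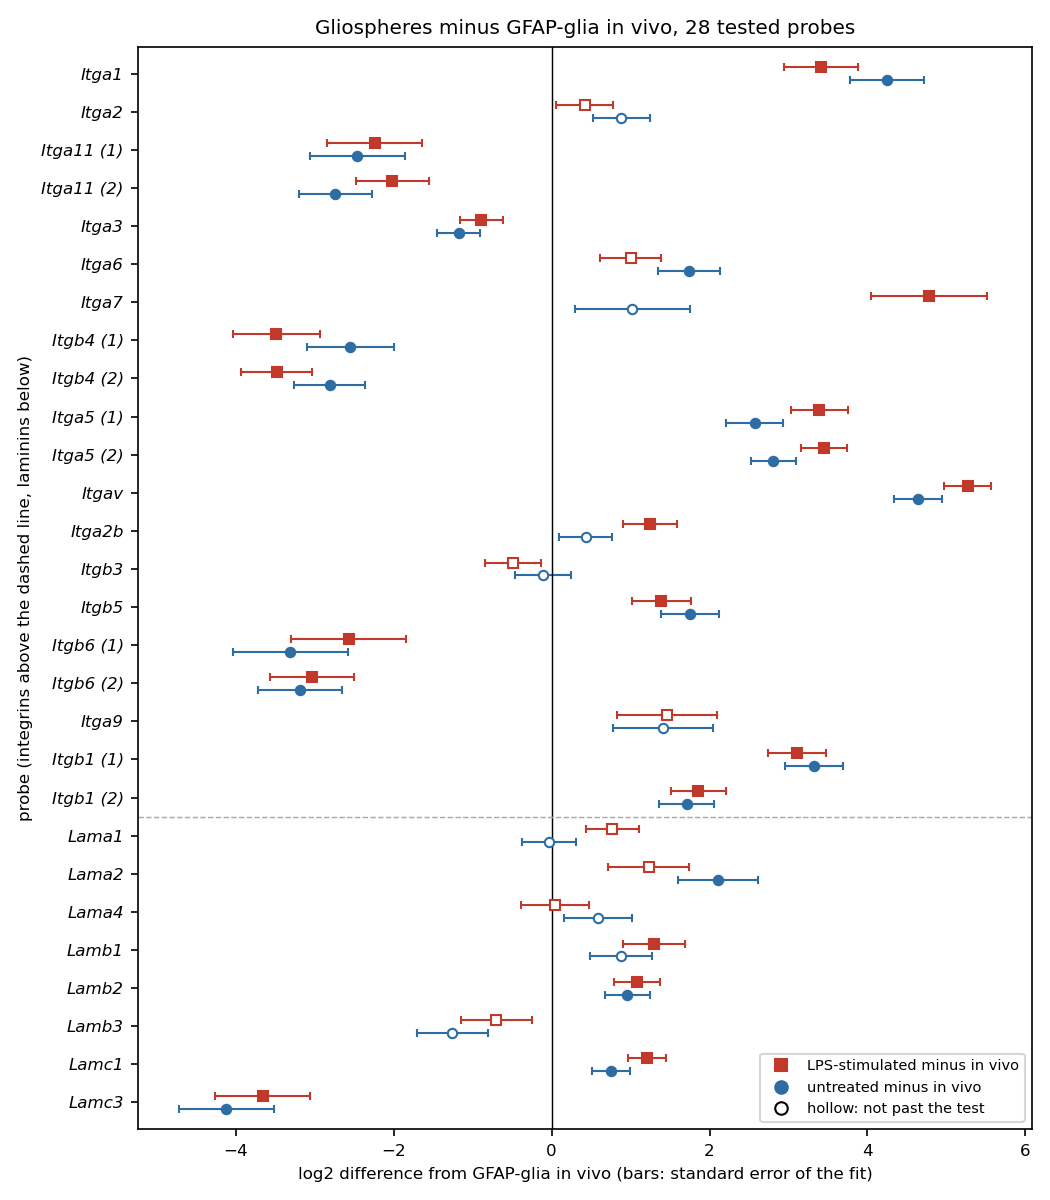
Log2 difference between gliospheres and GFAP-glia in vivo for the 28 tested probes (horizontal axis), as red squares for LPS-stimulated and blue circles for untreated gliospheres, with bars for the standard error of the fit and hollow symbols for probes not past the test. Itga5, Itgav, Itgb5 and Itgb1 lie to the right of 0, while Itga11, Itga3, Itgb4, Itgb6 and Lamc3 lie to the left, down to -4.12 for Lamc3.

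The fibronectin and RGD receptor subunits Itga5, Itgav and Itgb5 and their partner Itgb1 were higher in the gliospheres. Itgav, the alpha chain of the vitronectin receptors and of receptors that release transforming growth factor beta, was 10.06, 9.62 and 9.92 in LPS-stimulated gliospheres, 8.88, 9.82 and 9.02 in untreated gliospheres, and 4.86, 4.33 and 4.60 in GFAP-glia in vivo. Every gliosphere array lay above every in vivo array, and only 1 of the 3 in vivo arrays was above background. The log2 difference from GFAP-glia in vivo was 5.27 with LPS (standard error 0.30, adjusted p = 6.11e-06) and 4.64 without (standard error 0.30, adjusted p = 1.65e-05). In the authors' normalized values these differences were 2.67 and 2.17 and passed as well.

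Itga5, which pairs with Itgb1 as the classical fibronectin receptor, was measured by a pair of probes that moved alike (genes with several probes are numbered as in the plots). Its second probe was 8.61, 9.35 and 9.13 in LPS-stimulated gliospheres, 8.06, 8.52 and 8.62 in untreated gliospheres, and 5.95, 5.50 and 5.31 in GFAP-glia in vivo, with no overlap between gliospheres and in vivo. The log2 difference was 3.45 with LPS (standard error 0.29, adjusted p = 4.75e-05) and 2.81 without (standard error 0.29, adjusted p = 0.000193), and in the authors' normalized values 1.77 and 1.32. Its first probe was 6.62, 7.49 and 6.94 in LPS-stimulated gliospheres, 5.45, 6.57 and 6.58 in untreated gliospheres, and 3.47, 3.61 and 3.82 in GFAP-glia in vivo. Since this probe was above background on 0 of 3 in vivo arrays, the fold is a lower bound, set against the lowest signal of probes above background on those arrays. It was higher at least 4.45-fold in the LPS group (adjusted p = 0.000173) and at least 2.53-fold in the untreated group (adjusted p = 0.00106). This probe was tested through the gliosphere arrays alone, and with the detection filter removed its adjusted p was 0.000201 with LPS and 0.00149 without.

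Itgb1, the beta chain shared by most matrix-binding integrins, also had 2 probes. The first was 8.21, 7.59 and 8.0 in LPS-stimulated gliospheres, 7.75, 8.58 and 8.11 in untreated gliospheres, and 5.10, 4.08 and 5.29 in GFAP-glia in vivo. The second was 9.18, 9.45 and 8.98 in LPS-stimulated gliospheres, 8.75, 9.33 and 9.08 in untreated gliospheres, and 6.57, 7.62 and 7.84 in GFAP-glia in vivo. Neither showed an overlap between gliospheres and in vivo arrays, but the sizes differed between the probes. The first gave log2 differences of 3.11 with LPS (standard error 0.37, adjusted p = 0.000337) and 3.32 without (standard error 0.37, adjusted p = 0.000302), and the second 1.86 with LPS (standard error 0.35, adjusted p = 0.00413) and 1.71 without (standard error 0.35, adjusted p = 0.00735). Itgb5, a partner of Itgav in a vitronectin receptor, was 9.12, 9.55 and 8.83 in LPS-stimulated gliospheres, 9.66, 9.85 and 9.07 in untreated gliospheres, and 7.23, 7.62 and 8.47 in GFAP-glia in vivo. All gliosphere arrays were above the highest in vivo array, replicate 3. Its log2 difference was 1.39 with LPS (standard error 0.37, adjusted p = 0.0209) and 1.75 without (standard error 0.37, adjusted p = 0.00834). The LPS call was lost without LPS replicate 1, LPS replicate 2 or in vivo replicate 2 (adjusted p up to 0.0819).

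Itgb6, the partner of Itgav that is known from epithelia and activates transforming growth factor beta, was lower in the gliospheres. Of its 3 probes 1 was above background on no array. The first of the other two was 4.14, 3.43 and 2.28 in LPS-stimulated gliospheres, 2.64, 2.30 and 2.68 in untreated gliospheres, and 4.06, 6.91 and 6.59 in GFAP-glia in vivo. In vivo replicate 1 was not above background and lay among the gliosphere values, whereas in vivo replicates 2 and 3 stood clearly above them. The probe was lower at least 2.05-fold in the LPS group (adjusted p = 0.0274) and at least 2.13-fold in the untreated group (adjusted p = 0.0101). In comparisons with GFAP-glia in vivo the replicate block, here and below, joins in vivo and gliosphere arrays of 1 number, a pairing that no label gives. For Itgb6 the LPS call was lost without LPS replicate 2 or 3 or in vivo replicate 2 or 3, with that block and with only these groups in the fit (adjusted p up to 0.0969). Its second probe was 2.23, 1.66 and 2.36 with LPS, 2.00, 1.87 and 1.96 without and 3.70, 6.03 and 5.65 in vivo, again with 0 of 6 gliosphere arrays above background. It was lower at least 1.24-fold in the LPS group (adjusted p = 0.00285) and at least 1.29-fold in the untreated group (adjusted p = 0.00276). Both probes were tested through the in vivo arrays alone. With the detection filter removed, the adjusted p of the first was 0.0349 with LPS and 0.0122 without, and that of the second 0.00344 and 0.00323.

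Itga2b, the platelet chain of the fibrinogen receptor, was 5.10, 5.99 and 5.88 in LPS-stimulated gliospheres, 4.53, 4.95 and 5.04 in untreated gliospheres, and 5.0, 4.03 and 4.21 in GFAP-glia in vivo. It was higher with LPS than in vivo (log2 difference 1.25, standard error 0.34, adjusted p = 0.0247), without overlap, and the untreated difference of 0.43 did not pass. The LPS call was lost in 7 of 18 alternatives, namely without LPS replicate 2 or 3 or in vivo replicate 2 or 3, with the replicate block, with only these groups in the fit and with the authors' normalized values (adjusted p up to 0.0936). A further probe of Itga2b was above background on no array. Itgb3, which joins Itga2b or Itgav, had log2 differences of -0.49 with LPS and -0.11 without that did not pass, and Itgb8, another partner of Itgav, was above background on no array.

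The promoters of 4 of the higher genes and, for contrast, of Itga11, which was lower, are shown because their transcripts moved together or apart between gliospheres and GFAP-glia in vivo. They are RefSeq sequences of the mouse build GRCm38.p6 from 250 bases before to 50 bases after a transcript start, written 5′ to 3′ on the strand of the gene, with GC boxes (GGGCGG on either strand, the motif bound by Sp1) in capitals.
Itgav (chr2:83724147-83724446, plus strand): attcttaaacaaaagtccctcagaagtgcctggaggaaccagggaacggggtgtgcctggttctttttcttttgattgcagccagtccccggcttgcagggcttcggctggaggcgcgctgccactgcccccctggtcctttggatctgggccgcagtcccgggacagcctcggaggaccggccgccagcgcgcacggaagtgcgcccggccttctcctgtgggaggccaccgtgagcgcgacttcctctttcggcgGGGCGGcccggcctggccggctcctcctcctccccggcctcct
Itga5 (chr15:103366742-103367041, minus strand): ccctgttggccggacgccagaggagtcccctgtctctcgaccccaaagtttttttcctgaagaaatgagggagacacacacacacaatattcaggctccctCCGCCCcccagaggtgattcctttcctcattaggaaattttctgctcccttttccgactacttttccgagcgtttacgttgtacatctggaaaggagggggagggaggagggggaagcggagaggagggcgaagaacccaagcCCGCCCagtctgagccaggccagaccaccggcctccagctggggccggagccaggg
Itgb1 (chr8:128685404-128685703, plus strand): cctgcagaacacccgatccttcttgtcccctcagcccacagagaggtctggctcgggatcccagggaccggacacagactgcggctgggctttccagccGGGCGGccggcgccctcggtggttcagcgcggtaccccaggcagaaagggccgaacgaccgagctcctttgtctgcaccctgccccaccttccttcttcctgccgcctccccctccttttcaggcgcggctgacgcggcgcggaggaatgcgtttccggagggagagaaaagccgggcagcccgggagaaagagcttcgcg
Itgb5 (chr16:33829415-33829714, plus strand): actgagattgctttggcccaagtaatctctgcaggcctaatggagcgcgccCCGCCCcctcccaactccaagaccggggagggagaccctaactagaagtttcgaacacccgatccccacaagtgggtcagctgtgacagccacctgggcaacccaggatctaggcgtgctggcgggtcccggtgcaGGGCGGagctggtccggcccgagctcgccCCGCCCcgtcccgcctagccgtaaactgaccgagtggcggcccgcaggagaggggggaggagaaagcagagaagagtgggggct
Itga11 (chr9:62677605-62677904, plus strand): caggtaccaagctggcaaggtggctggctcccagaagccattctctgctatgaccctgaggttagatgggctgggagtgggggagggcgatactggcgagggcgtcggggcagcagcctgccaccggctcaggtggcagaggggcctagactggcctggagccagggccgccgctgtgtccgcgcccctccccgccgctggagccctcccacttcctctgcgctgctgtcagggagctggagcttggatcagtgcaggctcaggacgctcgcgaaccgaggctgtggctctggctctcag
Of the 31 member genes 20 had such a sequence. A GC box stood in the promoter of 6 of the 9 genes with a sequence that were higher in gliospheres (Itga5, Itgav, Itgb1, Itgb5, Lama2 and Lamb1, but not Itga1, Itga2b and Lamb2) and of 1 of 3 that were lower (Itga3, but not Itga11 and Itgb6), and of 3 of 8 with no call (Itga2, Itga4 and Itgam). Over all 23 member promoters the GC box was in 11, and in 35.7% of all 32851 promoters. The AP-1 motif TGACTCA was in 2 (Itga9 and Itgax) and in 5.2% of all promoters. The TATA motif TATAAA was in 0 and in 13.6% of all, each on either strand. A match is a description of the letters, not of a site in use.

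**Figure D2:**
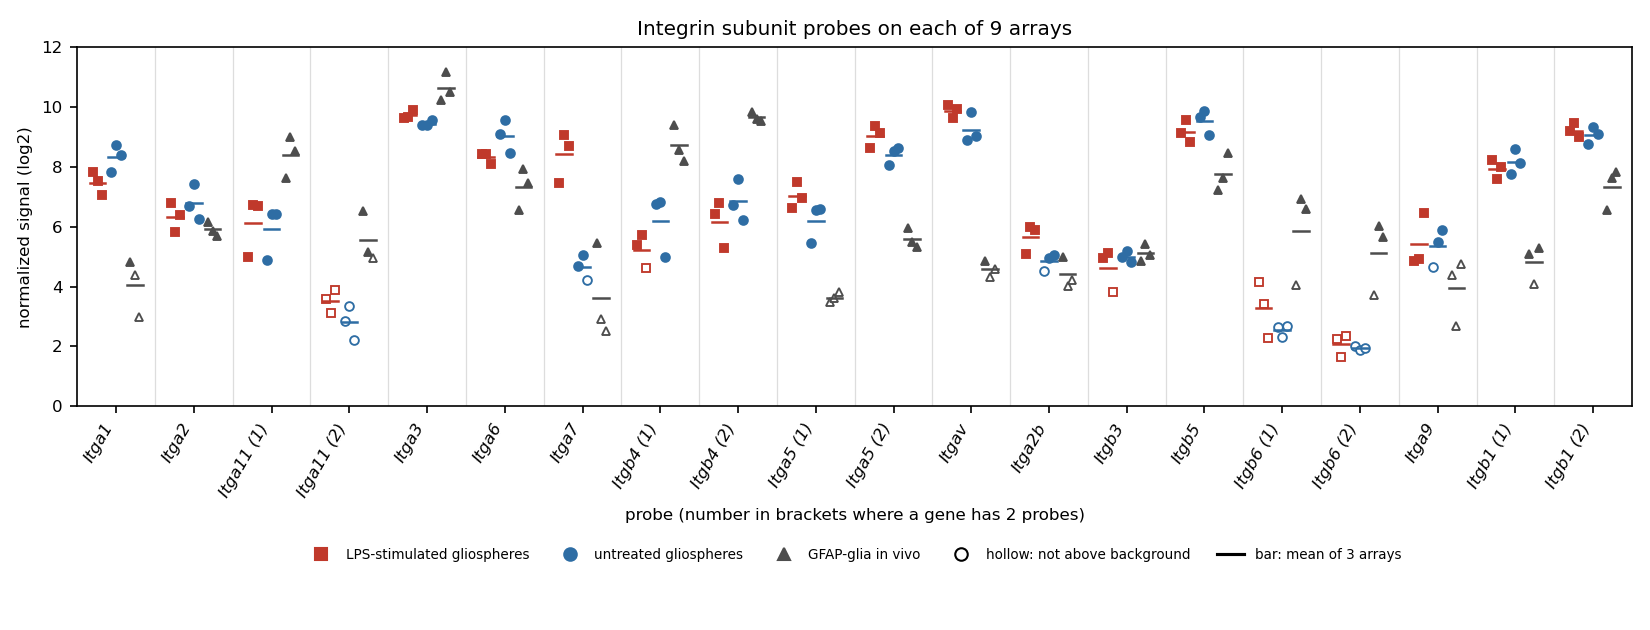
Normalized log2 signal (vertical axis) of the 20 tested integrin probes on each of the 9 arrays, as red squares for LPS-stimulated gliospheres, blue circles for untreated gliospheres and grey triangles for GFAP-glia in vivo, with bars for the mean of 3 arrays and hollow symbols where the probe was not above background. The gliospheres stand above the in vivo arrays for Itgav and Itga5 and below them for Itgb4, and Itga7 is high with LPS alone, at 7.47 to 9.07.

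Of the integrin chains that bind laminin, Itga7 and Itga6 were higher in 1 gliosphere group each, while Itga3 and Itgb4 were lower in the gliospheres. Itgb4, which pairs with Itga6 in hemidesmosomes and in the Schwann cell's contact with laminin, had 2 probes. The second was 6.42, 6.80 and 5.29 in LPS-stimulated gliospheres, 6.72, 7.60 and 6.21 in untreated gliospheres, and 9.83, 9.60 and 9.54 in GFAP-glia in vivo. The first was 5.37, 5.73 and 4.61 with LPS, 6.74, 6.82 and 4.97 without and 9.41, 8.57 and 8.19 in vivo. Each of the 6 gliosphere arrays was below all in vivo arrays on both probes. The log2 difference of the second probe was -3.48 with LPS (standard error 0.45, adjusted p = 0.000514) and -2.81 without (standard error 0.45, adjusted p = 0.0021), and that of the first probe -3.49 with LPS (adjusted p = 0.0016) and -2.55 without (adjusted p = 0.00924).

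Itga3, the alpha chain of a laminin receptor of epithelia and other cells, was 9.64, 9.65 and 9.91 in LPS-stimulated gliospheres, 9.41, 9.38 and 9.55 in untreated gliospheres, and 10.23, 11.15 and 10.49 in GFAP-glia in vivo. The groups did not overlap, and the log2 difference was -0.89 with LPS (standard error 0.27, adjusted p = 0.0352) and -1.18 without (standard error 0.27, adjusted p = 0.0116). The LPS call was lost in 10 of 18 alternatives, among them the replicate block, the fit of these groups alone and the loss of any gliosphere array or of in vivo replicate 2 (adjusted p up to 0.108). Itga6, the most widespread laminin-binding alpha chain, was 8.44, 8.41 and 8.08 in LPS-stimulated gliospheres, 9.09, 9.57 and 8.47 in untreated gliospheres, and 6.56, 7.91 and 7.45 in GFAP-glia in vivo. Untreated gliospheres were higher (log2 difference 1.74, standard error 0.39, adjusted p = 0.0115), and the difference with LPS of 1.00 did not pass (adjusted p = 0.0881), though it did without in vivo replicate 2 (adjusted p = 0.0407).

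Itga7, the laminin-binding alpha chain best known from skeletal muscle, stood apart with LPS. It was 7.47, 9.07 and 8.68 in LPS-stimulated gliospheres, 4.69, 5.04 and 4.23 in untreated gliospheres, and 5.45, 2.93 and 2.50 in GFAP-glia in vivo. All 3 LPS arrays lay above the other 6, of which 2 untreated and 1 in vivo array were above background. Against GFAP-glia in vivo the log2 difference was 4.78 with LPS (standard error 0.73, adjusted p = 0.00137), and that of untreated gliospheres, 1.02 (standard error 0.73, adjusted p = 0.334), did not pass. Without in vivo replicate 1, the brightest of its group, the untreated difference was 1.94 and passed (adjusted p = 0.0187).

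The collagen receptors split. Itga1, a chain of a receptor for collagen IV and also for laminin, was 7.81, 7.53 and 7.06 in LPS-stimulated gliospheres, 7.81, 8.74 and 8.38 in untreated gliospheres, and 4.82, 4.39 and 2.97 in GFAP-glia in vivo. It was above background on 1 of the 3 in vivo arrays and on all gliosphere arrays, without overlap. The log2 difference was 3.41 with LPS (standard error 0.47, adjusted p = 0.000817) and 4.25 without (standard error 0.47, adjusted p = 0.000308), and in the authors' normalized values 1.05 and 1.59, both past the test. Itga11, a receptor for fibrillar collagens known from mesenchymal cells, moved the other way. Its first probe was 4.99, 6.71 and 6.70 with LPS, 4.90, 6.43 and 6.41 without and 7.62, 8.99 and 8.52 in vivo, with gliosphere replicate 1 lowest in both cultures and no overlap with the in vivo arrays. The log2 difference was -2.24 with LPS (standard error 0.60, adjusted p = 0.0221) and -2.46 without (standard error 0.60, adjusted p = 0.0168). The LPS call was lost without LPS replicate 1 or in vivo replicate 2 or 3 (adjusted p up to 0.0696), and the untreated call without untreated replicate 1 (adjusted p = 0.0594).

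A second Itga11 probe was 3.59, 3.13 and 3.87 with LPS, 2.85, 3.36 and 2.21 without and 6.52, 5.16 and 4.95 in vivo, above background on 0 of 6 gliosphere arrays and 2 of 3 in vivo arrays. It was lower at least 1.65-fold in the LPS group (adjusted p = 0.0104) and at least 1.72-fold in the untreated group (adjusted p = 0.00277). This probe was tested through the in vivo arrays alone, and with the detection filter removed its adjusted p was 0.0148 with LPS and 0.00351 without. A further probe was above background on no array. Itga2, the chain of another collagen receptor, was above background on all 9 arrays, and its log2 differences of 0.42 with LPS and 0.88 without did not pass. Itga9, a chain that binds tenascin and other ligands, was above background on 3 of 3 LPS arrays, 2 of 3 untreated arrays and 0 of 3 in vivo arrays. It did not pass (adjusted p = 0.114 with LPS and 0.134 without), and its relative Itga4, which binds fibronectin and Vcam1, was above background on no array.

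The integrin chains of leukocytes were not detectable at this signal over background. Itgad (3 probes), Itgae (6 probes), Itgam, Itgax, Itgb2 and Itgb7 were above background on none of the 9 arrays. The 19 member probes that were above background on no array had signals of 84.4 to 210.8 before background correction. Ptprc, the common leukocyte antigen, was likewise above background on no array. Of 14 macrophage and leukocyte markers, 5 were above background with LPS, 4 without and 9 in vivo, with summed signals of 495 to 1047, 736 to 1209 and 1111 to 2318. Of the 10 tested, 4 were lower and 1, Lyz2, higher with LPS than in vivo, and 6 were lower and 0 higher without. Cd3e and Cd79a, called lower in both gliosphere groups, and Cd74 and Laptm5, called lower without LPS, were above background on no gliosphere array. These markers were tested through the in vivo arrays alone. Adgre1, a macrophage surface protein, was lower by -3.92 with LPS (adjusted p = 0.00131) and -2.94 without (adjusted p = 0.00693), and Coro1a, an actin-binding protein of leukocytes, by -3.00 (adjusted p = 0.000115) and -2.38 (adjusted p = 0.000557). Cd3e, of the T cell receptor complex, was above background on 3 of 3 in vivo arrays and on 0 of 6 gliosphere arrays. The part of these cells in the results was not tested.

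Among the laminin chains, the gamma chain Lamc1 and the beta chain Lamb2 were higher in both gliosphere groups, Lamb1 with LPS and Lama2 without, while the gamma chain Lamc3 was lower. Lamc1, part of most laminin trimers, was 11.68, 11.94 and 11.93 in LPS-stimulated gliospheres, 11.27, 11.55 and 11.35 in untreated gliospheres, and 10.85, 10.80 and 10.27 in GFAP-glia in vivo. None of the groups overlapped, the LPS and untreated gliospheres included. The log2 difference from GFAP-glia in vivo was 1.21 with LPS (standard error 0.24, adjusted p = 0.00498) and 0.75 without (standard error 0.24, adjusted p = 0.0452). The untreated call was lost in 11 of 18 alternatives, among them quantile normalization, the replicate block, the fit of these groups alone and the loss of any gliosphere array or of in vivo replicate 3 (adjusted p up to 0.147).

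Lamb2, the beta chain of synaptic and glomerular basement membranes, was 9.85, 10.57 and 10.02 in LPS-stimulated gliospheres, 9.78, 10.18 and 10.11 in untreated gliospheres, and 9.13, 8.63 and 9.44 in GFAP-glia in vivo. All gliosphere arrays were above the in vivo arrays. The log2 difference was 1.08 with LPS (standard error 0.29, adjusted p = 0.023) and 0.96 without (standard error 0.29, adjusted p = 0.0416). The LPS call was lost in 4 of 18 alternatives, namely without LPS replicate 2 or 3 or in vivo replicate 2 and in the fit of these groups alone (adjusted p up to 0.092), and the untreated call in 9 of 18, among them the loss of any untreated array, of LPS replicate 1 or 3 and of in vivo replicate 2 (adjusted p up to 0.13). Lamb1, the beta chain that is most common early in development, was 7.47, 7.62 and 7.58 in LPS-stimulated gliospheres, 6.64, 7.87 and 6.91 in untreated gliospheres, and 6.57, 6.67 and 5.53 in GFAP-glia in vivo. The LPS arrays were tightly grouped and above the in vivo arrays, whereas untreated replicate 1 overlapped with them. The log2 difference was 1.3 with LPS (standard error 0.39, adjusted p = 0.036) and, not past the test, 0.88 without. The LPS call was lost in 6 of 18 alternatives, without any 1 LPS array, untreated replicate 3 or in vivo replicate 3 or without the detection filter (adjusted p up to 0.1).

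Lama2, the alpha chain of muscle and Schwann cell basement membranes, was 7.43, 7.32 and 6.84 in LPS-stimulated gliospheres, 7.87, 8.38 and 7.98 in untreated gliospheres, and 6.96, 6.29 and 4.65 in GFAP-glia in vivo. Untreated gliospheres lay above both other groups, and in vivo replicate 3 was not above background. The untreated difference from GFAP-glia in vivo passed (log2 difference 2.11, standard error 0.51, adjusted p = 0.0165), though not without untreated replicate 2 (adjusted p = 0.0637). With LPS the difference was 1.23 and did not pass (adjusted p = 0.106), while without in vivo replicate 1 or with array weights it did (adjusted p down to 0.0227). Lamc3, a gamma chain known from skin, brain and retina, was 3.89, 3.60 and 3.06 in LPS-stimulated gliospheres, 4.49, 2.73 and 1.95 in untreated gliospheres, and 7.77, 7.22 and 6.53 in GFAP-glia in vivo. It was above background on 3 of 3 in vivo arrays and on 0 of 6 gliosphere arrays. The probe was lower at least 5.10-fold in the LPS group (adjusted p = 0.00214) and at least 5.32-fold in the untreated group (adjusted p = 0.00141). It was tested through the in vivo arrays alone, and with the detection filter removed its adjusted p was 0.00233 with LPS and 0.00145 without. Another Lamc3 probe was above background on no array.

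**Figure D3:**
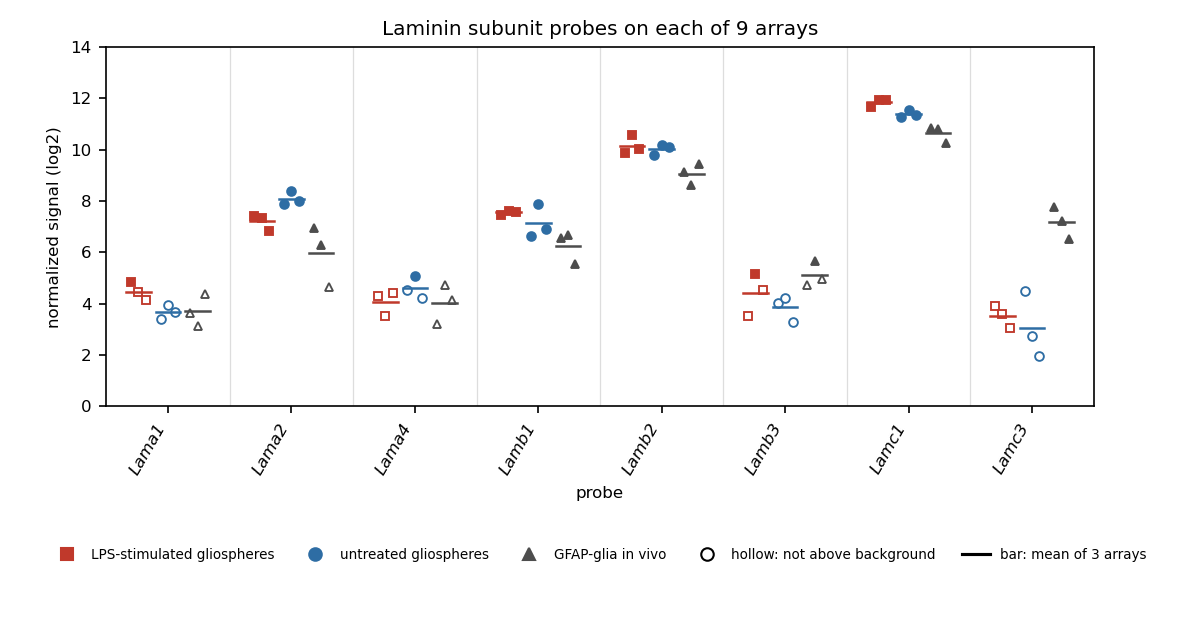
Normalized log2 signal (vertical axis) of the 8 tested laminin probes on each of the 9 arrays, drawn as for the integrins, with hollow symbols where the probe was not above background. Lamc3 is above background on the 3 in vivo arrays alone, at 6.53 to 7.77, and Lamc1 is above background on all 9 arrays.

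The remaining laminin chains were near background. Lama1, the alpha chain of the early embryo, was above background on 1 of 3 LPS arrays and on none of the other 6, and Lama4, the alpha chain of vessel walls and nerve, on 1 of 3 untreated arrays alone. Lamb3, a chain of the epidermal anchoring laminin, was above background on 1 LPS and 1 in vivo array. None of them passed the test in any comparison. Lama1 was higher with LPS than in vivo only when in vivo replicate 3 was left out (adjusted p = 0.0326). Lamb3 had log2 differences from GFAP-glia in vivo of -0.70 with LPS and -1.26 without (adjusted p = 0.277 and 0.0714), and the untreated difference passed with the replicate block and without LPS replicate 1 (adjusted p down to 0.0436).

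With LPS, 0 of the 28 probes passed limma's test against untreated gliospheres, and 4 of them had an unadjusted p under 0.05, as did 7.64% of all probes tested. The 4 were Itga7, the first probe of Itga5, Itga2b and Lama1. The median log2 difference was 0.18 for the 28 probes and 0 for all. Within the litters, 8 of the 28 probes were higher and 6 lower with LPS in all 3 (50.0%), where 38.8% of all probes tested went 1 way in all 3 litters.

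Itga7 came closest to the threshold. Its difference between LPS-stimulated and untreated gliospheres was 2.78, 4.03 and 4.44 on the log2 scale in litters 1, 2 and 3, and 3.75 in the fit (standard error 0.73, adjusted p = 0.0593). The arrays of these groups did not overlap. It passed in 10 of 19 alternatives, with an adjusted p of 0.00216 to 0.273 over all 19. Itga7 passed without in vivo replicate 1 or 3, and also in the gliosphere arrays alone with the litter as a block and in the authors' normalized values, where the difference was 1.51. Itga7 also stands in the study's own table of LPS genes from these arrays, so that this is no independent observation.

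Other LPS differences were smaller than the spread allowed to call. The second probe of Itga5 differed by 0.55, 0.84 and 0.51 in the 3 litters (fitted log2 difference 0.63, standard error 0.29, adjusted p = 0.685), its first probe by 1.17, 0.92 and 0.36 (0.81, standard error 0.36, adjusted p = 0.65) and Lamc1 by 0.41, 0.39 and 0.59 (0.46, standard error 0.24, adjusted p = 0.78). These were higher with LPS in each litter. In the other direction, Itga6 differed by -0.66, -1.16 and -0.39 (fitted log2 difference -0.74, standard error 0.39, adjusted p = 0.815) and Lama2 by -0.44, -1.06 and -1.14 (-0.88, standard error 0.51, adjusted p = 0.906). Both were lower with LPS in each litter. Itgav, Itgb1, Itga9 and Lamb2 had no single direction over the litters.

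**Figure D4:**
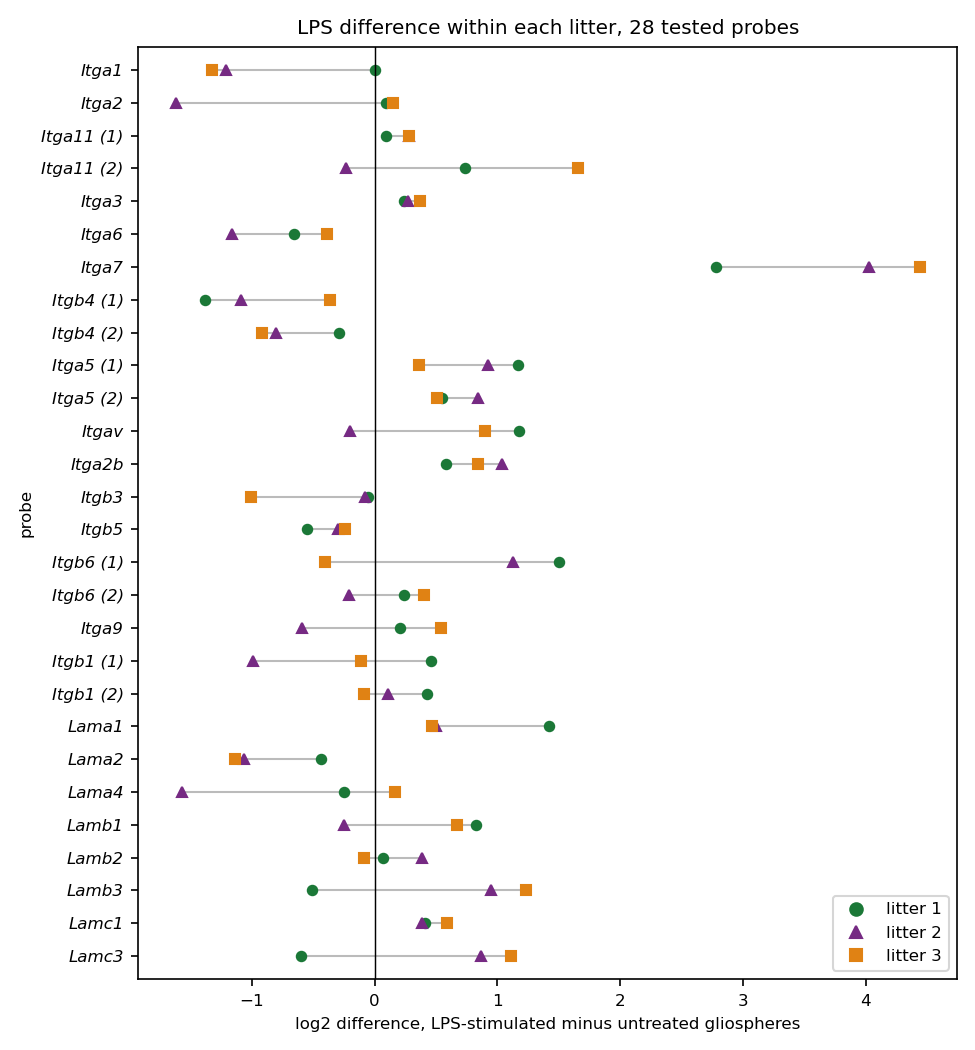
Log2 difference between LPS-stimulated and untreated gliospheres (horizontal axis) within litter 1 (green circles), litter 2 (purple triangles) and litter 3 (orange squares) for the 28 tested probes, with grey lines from the lowest to the highest litter. Itga7 lies between 2.78 and 4.44, and all other probes lie between -1.62 and 1.66.

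Genes that act with integrins and laminins were taken from lists of other basement membrane components, non-integrin laminin receptors, integrin adaptors and further integrin ligands, each gene by its brightest probe. Their counts stand beside the 28.4% of all probes called with LPS against in vivo and the 25.0% called without. Among 14 tested basement membrane genes, 3 were higher and 6 lower with LPS than in vivo, and 3 higher and 2 lower without, where 9 were called in all in the authors' normalized values. Col4a4, among the genes lower with LPS, was above background on 1 in vivo array alone and was tested through that array. Col4a1, a chain of collagen IV, was higher by a log2 difference of 1.29 with LPS (standard error 0.21, adjusted p = 0.00208) and 1.28 without (standard error 0.21, adjusted p = 0.00269), and Fbln1, a fibulin of the matrix, by 1.58 with LPS (adjusted p = 0.00675) and 2.01 without (adjusted p = 0.00248). Nid2, a nidogen that links laminin to collagen IV, was lower by -2.56 with LPS (adjusted p = 0.00222) and -2.26 without (adjusted p = 0.00514), as was Smoc1, a calcium-binding glycoprotein of basement membranes, by -2.22 (adjusted p = 0.00266) and -3.03 (adjusted p = 0.000605). Col4a5, another collagen IV chain, was lower with LPS by -2.30 (adjusted p = 0.000892). The list thus held members that moved either way. Its median log2 difference was 0.21 with LPS, although more of its genes passed lower than higher there, and -0.07 without, where more passed higher than lower, against 0.09 over all probes in each.

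Of 14 tested non-integrin laminin receptors and members of the dystroglycan complex, 3 were higher and 1 lower with LPS than in vivo, and 4 higher and 1 lower without. Dag1, which encodes the laminin receptor dystroglycan, was 12.15, 12.18 and 11.83 with LPS, 12.75, 12.95 and 12.41 without and 10.51, 11.65 and 11.48 in vivo. It was higher in untreated gliospheres (log2 difference 1.49, standard error 0.32, adjusted p = 0.00983), and the LPS difference of 0.84 did not pass (adjusted p = 0.0836). Sdc4, a syndecan that acts with Itgb1 in focal adhesions, was higher with LPS by 2.17 (standard error 0.28, adjusted p = 0.000583). The complex members Sntb2 (1.31 with LPS, adjusted p = 0.00758, and 1.49 without, adjusted p = 0.00484), Sgcb (0.88 with LPS, adjusted p = 0.0143, and 1.11 without, adjusted p = 0.00558) and Sgcd (1.58 without, adjusted p = 0.0251) were higher as well. Bcam, a laminin receptor of the immunoglobulin family, was lower, by -2.95 with LPS (adjusted p = 0.0179), and at least 6.34-fold without (adjusted p = 0.00652), where it was above background on 0 of 3 arrays.

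Of 17 tested adaptors and focal adhesion genes, 6 were higher and 2 lower with LPS than in vivo, and 7 higher and 1 lower without. Lims1, part of the complex that joins integrins to actin, was higher at least 1.98-fold in the LPS group (adjusted p = 0.0069) and at least 3.68-fold in the untreated group (adjusted p = 0.000762). Lims1 was above background on no in vivo array and was tested through the gliosphere arrays alone. Vcl, the focal adhesion protein vinculin, was higher by 1.41 with LPS (adjusted p = 0.0455) and 1.42 without (adjusted p = 0.0486), Rsu1, another member of the Lims1 complex, by 1.25 with LPS (adjusted p = 0.0107) and 1.40 without (adjusted p = 0.00721), and Cav1, the caveolar coat protein, by 2.02 without (adjusted p = 0.00723). Parva, the actin-binding parvin of that complex, was lower by -1.66 with LPS (adjusted p = 0.00141) and -1.71 without (adjusted p = 0.00146). Of 16 tested integrin ligands other than laminin, 7 were higher and 0 lower with LPS than in vivo, and 5 higher and 0 lower without. Vcam1, the ligand of Itga4 and Itga9, was higher by 4.13 with LPS (standard error 0.55, adjusted p = 0.000616) and 2.18 without (adjusted p = 0.0187). Tnc, the ligand tenascin, was higher by 3.03 (adjusted p = 4.97e-05) and 1.98 (adjusted p = 0.000706), Tgfbi by 3.35 (adjusted p = 0.000249) and 3.31 (adjusted p = 0.000343), and Ltbp1, which anchors latent transforming growth factor beta, by 3.55 (adjusted p = 2.3e-05) and 3.83 (adjusted p = 2.11e-05), each with LPS first. Between LPS-stimulated and untreated gliospheres 0 genes of these lists passed limma's test, and at an unadjusted p under 0.05 there were 2 of 14 basement membrane genes, 2 of 14 laminin receptors, 4 of 17 adaptors and 5 of 16 ligands, against 7.64% of all probes.

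Markers of other cell types moved with these groups, and their part in the results above was not tested. Of 8 intestinal epithelial markers, 2 were above background with LPS, 2 without and 3 in vivo, with summed background-corrected signals of 156 to 239, 245 to 370 and 171 to 1572. Krt18, Vil1, Cdx2, Fabp2 and Tff3 were above background on none of the 9 arrays. The highest sum, 1572, was that of in vivo replicate 1. Of the 3 tested, 2 were lower and 0 higher with LPS than in vivo, and 1 lower and 0 higher without. Krt19, a keratin of simple epithelia, was above background on 3 of 3 in vivo arrays and on 0 of 6 gliosphere arrays, and was tested through the in vivo arrays alone. It was lower at least 14.6-fold with LPS (adjusted p = 0.000271) and at least 15.3-fold without (adjusted p = 0.000246). Krt8 was lower with LPS (log2 difference -1.59, adjusted p = 0.0375). Lgals4 went the other way, by 0.72 with LPS (adjusted p = 0.13) and 0.66 without (adjusted p = 0.173), and did not pass. Of 10 smooth muscle markers, 4 were above background with LPS, 5 without and 7 in vivo, with sums of 2832 to 5029, 6544 to 10429 and 4278 to 23717, the highest again in replicate 1. Acta2, smooth muscle actin, was lower with LPS than in vivo (log2 difference -2.06, adjusted p = 0.00263), and the untreated difference of -1.0 did not pass. Myh11, smooth muscle myosin, was lower at least 31.7-fold with LPS (adjusted p = 0.00017) and at least 33.1-fold without (adjusted p = 0.0002), and Des, desmin, at least 9.53-fold (adjusted p = 0.000569) and 9.93-fold (adjusted p = 0.000311). Both were above background on no gliosphere array and were tested through the in vivo arrays alone. Actg2, enteric smooth muscle actin, was lower by -4.90 with LPS (adjusted p = 0.000545) and -6.68 without (adjusted p = 0.000125). In all, 4 of 8 tested smooth muscle markers were lower with LPS and 3 of 8 without, and 0 were higher.

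Of 9 fibroblast and mesenchymal markers, 7 were above background with LPS, 7 without and 8 in vivo, with sums of 14035 to 17400, 5910 to 6997 and 1871 to 13435. Fap was above background on no array. In this list 2 of 8 tested, Dcn and Lum, rose with LPS over untreated gliospheres (log2 differences 2.80 and 2.08, adjusted p = 0.0315 and 0.0166), where 0.825% of all probes passed. Against GFAP-glia in vivo, 2 (Col3a1 and Lum) were higher and 0 lower with LPS. Without LPS 1 was higher (Lum, 1.39, adjusted p = 0.00941) and 1 lower (Dcn, -1.91, adjusted p = 0.018). Of 10 endothelial and pericyte markers 4, 4 and 7 were above background with LPS, without and in vivo (sums 702 to 953, 546 to 927 and 250 to 382), of 11 neuronal markers 8, 8 and 9 (34079 to 41622, 38124 to 51457 and 24534 to 50541), and of 5 Schwann cell and myelin markers 4, 4 and 5 (7200 to 11455, 13628 to 16552 and 3685 to 6844). Of 9 tested neuronal markers 5 were lower and 0 higher than in vivo in each gliosphere group, namely Elavl3, Uchl1, Prph, Nefm and Stmn2. Prph, the neurofilament peripherin, was lower by -6.55 with LPS (adjusted p = 4.14e-06) and -6.33 without (adjusted p = 7.14e-06), and Nefm, a neurofilament, at least 42.8-fold (adjusted p = 8.08e-06) and 44.6-fold (adjusted p = 1.14e-05). Nefm was above background on no gliosphere array and was tested through the in vivo arrays alone. Of 5 tested Schwann cell and myelin markers 1 (Cdh19) was higher and 3 (Mbp, Egr2 and Mag) lower with LPS, and 1 (Cdh19) higher and 2 (Egr2 and Mag) lower without. Of 7 endothelial and pericyte markers 1 (Cspg4) was higher and 2 (Esam and Rgs5) lower with LPS, and 1 (Cspg4) higher and 1 (Esam) lower without. Mag, Esam and Rgs5 were above background on no gliosphere array and were tested through the in vivo arrays alone. Although the sums of the Schwann cell and endothelial lists were higher in the gliospheres, the median log2 differences were -2.28 with LPS and -1.2 without for the Schwann cell list. For the endothelial list they were -0.65 and -1.21. The interstitial cell markers Ano1 and Etv1 gave sums of 113 to 391 with LPS, 173 to 411 without and 29 to 75 in vivo. They moved apart, with Etv1 called higher and Ano1 lower in each gliosphere group than in vivo. Ano1 was above background on no gliosphere array and was tested through the in vivo arrays alone.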

How the data were processed

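Illumina MouseRef-8 v2.0 bead arrays were hybridised with RNA of 9 samples, 3 per group. The authors deposited bead-averaged signal intensities from GenomeStudio, not normalized, each with a detection p-value against negative control beads, and a second table of normalized intensities. No source used here states the version of GenomeStudio. Of the cells of a signal column, 95.79 to 98.19% had no decimal point left. The points were restored from the rule that, on an array, the normalized value rises with the signal, so that both tables were settled together and the authors' normalized values are no independent check of this step. It recovered 107978 of 108000 cells in simulated data, and 7 of 25697 probes that could not be settled were left out. In the normalized table the values of all columns are the same set, as after quantile normalization, while the methods name variance stabilization, so that its making is unsure.

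Signals were background-corrected by normexp from the detection p-values (limma 3.58.1, R 4.3.3, offset 0) and normalized by variance stabilization on the log2 scale, written anew for this work and checked on simulated data. Probes with a symbol (23978, and 1719 had none) and a detection p-value of at most 0.05 on at least 1 array were fitted with limma over all 9 arrays, and p-values were adjusted by the Benjamini-Hochberg method. Where a probe was not above background on any array of a group, the fold is a lower bound: the mean of the brighter group against, per array, the higher of the probe's own value and the lowest value among probes above background. LPS-stimulated and untreated arrays of a number share a litter per the series' design, and their deviations correlated by 0.16, 0.09 and 0.17 for the 3 litters, against -0.14 to -0.02 for unlike numbers. Those of untreated gliosphere and in vivo arrays, which no label pairs, correlated by -0.18 to 0.19. A litter effect was not tested. The in vivo arrays were not tied to these litters. The replicate block over all 9 arrays still sets each in vivo array beside the gliosphere litter of its number. For comparisons with GFAP-glia in vivo it is thus an arbitrary pairing.

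Alternatives were quantile normalization, no background correction, the authors' normalized values, no detection filter, detection on at least 3 arrays, the replicate block, a trended and robust variance, array weights, the compared groups alone and the loss of each array. The members and gene lists were chosen with earlier results of these data known. Every member gene was named, with values per array for those past the test in any comparison, and from each list up to 4 genes past the test per comparison by the size of the difference, besides Dag1, Gfap, S100b, Acta2 and Ptprc (Sox10, also in this rule, was not analysed here). Other marker genes were named after their values were seen. Promoters are RefSeq sequences of GRCm38.p6. Separate litters, pooled, are the replicates.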

Additional observations from a re-analysis of the deposited data

How the results depend on the processing

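Of the 28 tested probes, 0 passed between LPS-stimulated and untreated gliospheres, also with the replicate block over all 9 arrays and without the detection filter. The count was 1, Itga7, with quantile normalization, no background correction, the authors' normalized values, detection on at least 3 arrays, the trended and robust variance, array weights, the compared groups alone, and the gliospheres alone with the replicate block, and it was 0 to 1 when an array was left out. Against GFAP-glia in vivo, the count with LPS was 20, 17 with the replicate block and 14 to 21 when an array was left out, and for untreated gliospheres 19, 18 with the block and 16 to 20. The split was 12 higher and 8 lower with LPS and 11 and 8 without, and 12 and 5 and 11 and 5 with detection on at least 3 arrays. With the replicate block it was 11 and 6 with LPS and 9 and 9 without, and without untreated replicate 2 it was 8 and 8 in untreated gliospheres.

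Over all probes, 122 passed between LPS-stimulated and untreated gliospheres, 423 with array weights, 210 in the fit of these groups alone and 39 to 215 when an array was left out. Between untreated gliospheres and GFAP-glia in vivo 3696 passed, and 2363 without untreated replicate 2.

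Signs turned for values that did not pass. With LPS against untreated gliospheres, leaving out an array gave log2 differences of -0.29 to 0.79 for the first Itga11 probe, -0.46 to 0.33 for Itga9, -0.41 to 0 and 0 to 0.29 for the Itgb1 probes, -0.62 to 0.02 for Itgb3, -0.09 to 0.27 for Lamb2 and -0.1 to 1.18 for Lamc3. For untreated gliospheres against GFAP-glia in vivo it gave -0.24 to 0.05 for Itgb3 and -0.32 to 0.3 for Lama1, which was 0.04 with quantile normalization, 0.02 in the authors' values and 0 with array weights. For LPS against in vivo it gave -0.37 to 0.39 for Lama4, which was -0.25 with array weights. The cause was not tested.

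Of the differences called against GFAP-glia in vivo, 16 of 20 with LPS and 14 of 19 without were over 1.5 times smaller in the authors' normalized values, for example -0.99 with LPS and -1.07 without for Lamc3 against GFAP-glia in vivo. Signal over background limits what can be said of probes above background in a single group, and 3 arrays per group limit the precision.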
